A study of Mus musculus with 2 samples.

Results

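Replication-dependent histone genes were examined in single cells from the spleens of a mouse with sickle cell disease (SCD) and of a non-sickling control mouse. All genes of the files whose symbol starts with Hist1h, Hist2h or Hist3h were taken, which gave 66 of 26124 genes. They encode the linker histone H1 (6 genes) and the core histones H2A (18), H2B (18), H3 (12) and H4 (12). On the mouse genome build GRCm38, 54 of them lie on chromosome 13 between 21715763 and 23934851, 10 on chromosome 3 between 96219865 and 96270132, and 2 on chromosome 11 between 58948920 and 58956830. In both libraries 64 members had at least 1 unique molecular identifier (UMI, a tag that marks 1 captured mRNA molecule) in the cells kept. Hist1h2aa and Hist1h2ba, the genes of testis forms of H2A and H2B, were at 0 in both, which allows up to 0.0377 counts per 1000000 UMIs (CPM) in the wild-type and 0.0174 in the SCD library (3 counts of each total).

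A cell that copies its DNA must also supply histones to package the copy, and these genes are switched on together when DNA synthesis starts. Their mRNAs are unusual in that most end in a conserved stem-loop, bound by the stem-loop binding protein SLBP, and not in a poly(A) tail, and they are degraded when replication stops. Replacement histones such as H3.3 and H2A.Z are made from other, polyadenylated mRNAs throughout the cell cycle. The libraries used here were primed on poly(A), so the UMIs count only those histone molecules that the primer captured, and a level given here is not the amount of histone mRNA in a cell.

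Both mice were homozygous for Hba tm1Paz, the allele that removes the mouse alpha globin genes, and both carried the human globin transgene Tg(HBA-HBBs)41Paz. The control mouse, called wild-type in the labels, was heterozygous for Hbb tm1Tow and hemizygous for the transgene and does not sickle. The SCD mouse was homozygous for both and sickles. Mice were 12 to 16 weeks old and untreated, and each group held 1 mouse, 1 spleen and 1 library, so genotype, animal and library cannot be told apart and no test across animals could be made. After lysis of red blood cells the suspensions were depleted with a bead kit that leaves dendritic cells (DC), and the remaining cells went into 10x Genomics 3′ single-cell libraries.

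The files held 10845 wild-type cells with 97880318 UMIs and 13447 SCD cells with 189688217 UMIs. Filters on detected genes and on mitochondrial and ribosomal shares left 9718 and 11855 cells, with a median of 5156.5 and 9065 UMIs and with 100031 and 487434 histone UMIs. Despite the enrichment, cells with neutrophil markers were the most frequent class, at 45.0% of kept wild-type and 60.6% of kept SCD cells, and cells with conventional DC markers made up 24.1% and 4.78%. As a check of the labels, Hbb-bs, a mouse beta globin gene that Hbb tm1Tow removes, had a level of 1765 CPM for the wild-type mouse and 16.3 CPM for the SCD mouse over the kept cells. Hba-a1 was still counted, at 926 and 1289 CPM, in mice whose labels say that the gene was removed in both. Barcodes found in both libraries numbered 88, and for 50 of them the SCD copy held under 1% of the wild-type copy's UMIs (median 0.505%). Kept cells with such a barcode numbered 68 and 38, and 39 of the 190 wild-type cells in the dividing erythroid clusters were among them, so the main erythroid comparisons between the mice and between S phase and G2/M are also given without these cells.

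The stem-loop was looked for in the longest annotated coding transcript of each gene, because it decides how these mRNAs normally end. The motif GGNNCTTTTNANNNCC was found within 200 bases after the stop codon, on the transcript's strand, in 42 of the 66 members and in 10 of 20818 other coding genes (0.048%). H1, H2A, H2B and H3 genes shared 1 form in 25 members, and the H4 genes differed from it in the stem. No stem-loop was found in the models of Hist1h1b and Hist1h2bc, the H1 and H2B genes with most UMIs. The sites below come from GENCODE M21 transcripts (GRCm38) of members that have the motif and are among the 3 with most UMIs of their type. No H2B gene is shown. The stem-loop is in capitals, with up to 7 flanking bases on each side.
Hist1h2ap: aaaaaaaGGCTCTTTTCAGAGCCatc
Hist1h2ae: aaacaaaGGCTCTTTTCAGAGCCattcact
Hist1h1c: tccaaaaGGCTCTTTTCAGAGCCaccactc
Hist1h3c: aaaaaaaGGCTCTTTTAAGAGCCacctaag
Hist1h4d: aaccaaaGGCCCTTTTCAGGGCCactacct
Hist1h4i: acttaaaGGCCCTTTTTAGGGCCaccacaa

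The form of Hist1h2ap was shared by 10 H2A, 7 H2B, 5 H3 and 3 H1 genes, and that of Hist1h3c by 3 H3, 2 H2B and 1 H1 gene. The H4 forms were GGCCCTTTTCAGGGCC in 6 genes, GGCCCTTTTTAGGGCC in 2 and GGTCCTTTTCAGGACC in 2, and none of these was found in another type. The annotated models ended near the stem-loop in 21 members, as in Hist1h2ap, where 3 bases follow it. In another 21 they went on for at least 100 bases, as in Hist1h1c, where 840 bases follow it with an AATAAA polyadenylation signal. No stem-loop was found in 24 members, of which 17 have unspliced models that end within 60 bases of the stop codon. The spliced models of Hist1h2bc, Hist1h2bp, Hist1h2bq and Hist1h2br lack it as well. Other models of Hist1h2bp, Hist1h2bq and Hist1h2br were not searched.

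Dividing cells were told from non-dividing cells without the histone genes. Cells were clustered with the histone genes left out, and a cluster was called dividing when over 50% of its cells, each thinned to 1000 UMIs, held at least 5 UMIs of 90 S phase and G2/M genes, and non-dividing when under 10% did. Of 26 clusters, 6 were dividing, 5 mixed and 15 non-dividing. Dividing clusters held erythroid precursors, neutrophil precursors, a conventional DC cluster and a cluster led by Ctsg, Mpo and Prtn3, genes of early myeloid granules, that was left unnamed. They made up 4.88% of kept wild-type cells (exact 95% interval 4.46 to 5.32) and 18.8% of kept SCD cells (18.1 to 19.5), after an enrichment that can itself set these shares.

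Summed over the members, histone UMIs were far more frequent in dividing clusters in both mice. In the wild-type library they numbered 3418 CPM in dividing and 434 CPM in non-dividing clusters, a ratio of 7.88 (7.76 to 8.0). In the SCD library they stood at 4362 and 364 CPM, a ratio of 12.0 (11.8 to 12.1). These and all later intervals are exact 95% intervals of counts and cover counting error only, not the spread between animals. Dividing clusters thus accounted for 67.7% of all histone UMIs in the wild-type library and for 80.0% in the SCD library. No non-dividing cluster with at least 50 cells reached the level of the dividing clusters that had 50 cells in both libraries, the lowest of which was erythroid at 2822 and 3303 CPM, and the highest non-dividing values were 1051 CPM in the wild-type against 1546 CPM in the SCD library.

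**Figure D1:**
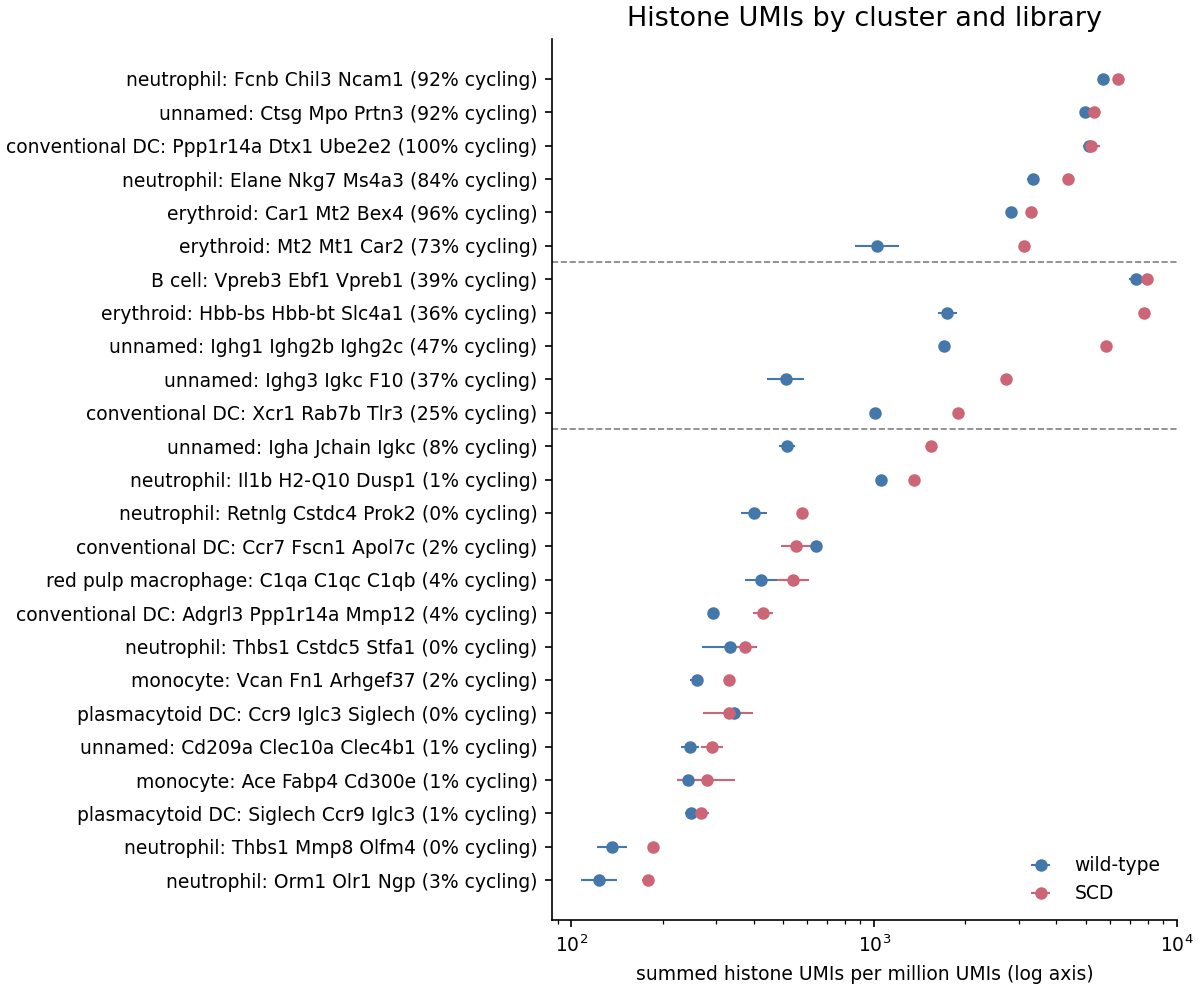
Summed histone level in CPM (log axis) of the 25 clusters with at least 50 cells, named by class and their 3 leading genes, with the share of cycling cells in brackets. Points are libraries, bars exact 95% Poisson intervals, and the dashed lines part dividing, mixed and non-dividing clusters: levels run from 123 CPM in Ltf-expressing neutrophils to 7974 CPM in the mixed B cell cluster.

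Summed by type, the members differed in how closely they followed division, and 1 member can carry much of such a sum. H2A was 17.3 times as high in dividing as in non-dividing clusters of the wild-type and 22.0 times in the SCD library, and H3 12.8 and 19 times. The ratios were 6.79 and 8.30 for H1 and 3.62 and 5.80 for H4. The H2B sum had the lowest ratio, with 152 CPM in dividing and 128 CPM in non-dividing wild-type cells, a ratio of 1.19 (1.14 to 1.24), and 163 and 77.8 CPM in SCD cells, a ratio of 2.09 (2.03 to 2.16). Hist1h2bc alone held 82.6 of the 128 CPM in non-dividing wild-type cells, and the other 17 H2B genes together stood at 132 against 45.4 CPM, a ratio of 2.92 (2.76 to 3.08), and at 137 against 25.7 CPM in SCD cells, a ratio of 5.31 (5.05 to 5.59). With the most captured member of each type left out, the ratios of the others were 7.83 and 10.8 for H2A, 8.23 and 14.0 for H3, 3.32 and 4.25 for H1 and 2.61 and 4.57 for H4. Among the histone UMIs of dividing clusters H2A held 60.7% and 65.8%, H1 23.7% and 21.3% and H2B 4.44% and 3.73%. In non-dividing clusters H2B held 29.5% and 21.4%, so that the captured make-up of types was not the same in the 2 kinds of cells. Nucleosomes hold equal amounts of the core histones, so these shares describe captured molecules and not the histones made.

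**Figure D2:**
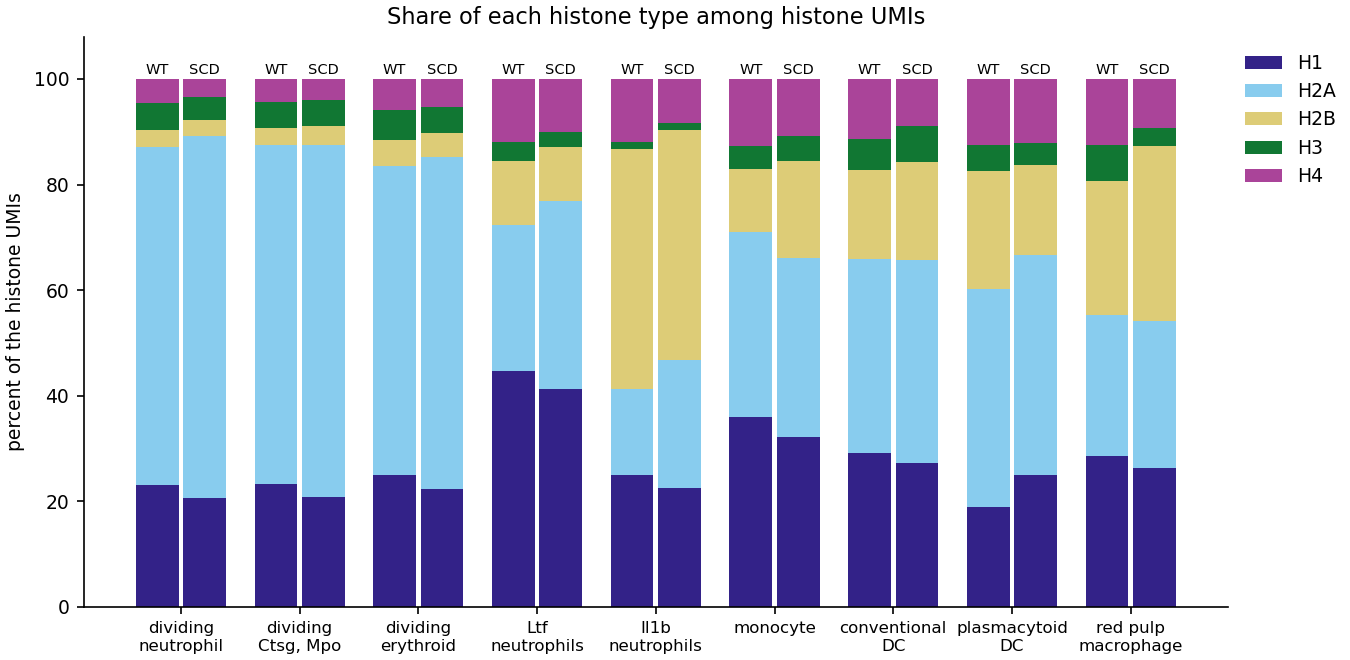
Share (percent) of H1, H2A, H2B, H3 and H4 among the histone UMIs of 9 cell populations, wild-type (WT) on the left and SCD on the right of each pair. H2A fills at least 58.6% of each dividing bar, and H2B fills 45.4% and 43.4% of the bars of the Il1b-expressing neutrophils.

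Few genes carried most of the signal. Hist1h2ap (an H2A gene) held 42.4% of the histone UMIs of both libraries, Hist1h2ae (H2A) 14.2% and Hist1h1b, the gene of linker histone H1.5, 10.7%. These 3 together held 67.4%, and the leading 5 held 76.3%. Counts are 3′-end molecules and were not divided by transcript length. How they are split between members is uncertain, because 32 members share at least 50% of their 50-base windows with another gene, 93.1% in Hist1h2ap, and these 32 held 50.1% of the histone UMIs. Over the last 300 bases of Hist1h2ap, 100% of the windows are shared. Its transcript also holds a stretch of 20 bases with 16 A, and whether the primer bound there was not tested.

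Hist1h2ap was at 1357 CPM (1341 to 1373) in dividing and 28.1 CPM in non-dividing wild-type cells, and at 2049 CPM (2040 to 2059) and 54.2 CPM in SCD cells. Per cell of the dividing clusters this was 56.8 UMIs in the wild-type and 82.3 in the SCD library. Hist1h2ae stood at 566 against 19.1 CPM in the wild-type and at 641 against 18.5 CPM in the SCD library. Hist1h1b was the member most restricted to dividing clusters by the mean log2 ratio of both libraries, at 430 against 4.72 CPM and at 490 against 8.86 CPM. Hist1h2ap and Hist1h2ae came next by this measure. Then came Hist1h3c, the most captured H3 gene, with 76.8 against 0.926 CPM and 82.3 against 1.91 CPM, and Hist1h1a, the gene of H1.1, with 50.9 against 0.680 CPM and 56.6 against 1.30 CPM. In each of these 5 members both libraries gave the same order, and the smallest of the ratios was 29.7, for Hist1h2ae in the wild-type.

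Other members were less tied to division. Hist1h1e, the gene of H1.4, stood at 220 against 30.3 CPM in the wild-type and 267 against 47.8 CPM in the SCD library. Among H4 genes, Hist1h4d stood at 80.9 against 11.1 CPM and 76.0 against 7.76 CPM, and Hist1h4h at 35.6 against 5.33 CPM and 38.9 against 3.55 CPM. The next H3 genes, Hist1h3e and Hist1h3f, stood at 36.4 and 24.7 CPM in dividing against 3.38 and 1.53 CPM in non-dividing wild-type cells. Hist2h2bb, an H2B gene, stood at 25.1 against 3.38 CPM and 27.0 against 2.36 CPM. Hist2h2aa1 (H2A) was close in both states, at 38.2 against 24.0 CPM and 41.5 against 33.9 CPM.

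Only members with at least 20 UMIs and 10 CPM in 1 of the 2 populations compared were set against the background of all genes, and past the fold means a ratio of at least 2. Of 30 such members, 22 were past the fold upward in dividing cells of the wild-type library, against 25.8% of the 9297 genes compared. In the SCD library 26 of 30 were, against 38.0% of 8436 genes. Downward, 2 members (Hist1h2bc and Hist3h2a) were past it in the wild-type, against 28.6% of genes, and 0 in the SCD library, against 17.9%. On the scale log2(CPM + 5) the median ratio was 1.86 over these members and −0.03 over all genes in the wild-type, and 2.08 and 0.40 in the SCD library. With no CPM added, the members' medians were 3.57 and 4.39 and those of all genes −0.03 and 0.49. The other members were too rarely counted for this comparison.

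The members with the lowest ratio of dividing over non-dividing clusters were Hist1h2bc, Hist3h2a, Hist3h2ba, Hist2h3c1 and Hist1h1c. Hist1h2bc (H2B) stood at 19.3 CPM in dividing and 82.6 CPM in non-dividing wild-type cells, and at 26.3 and 52.1 CPM in SCD cells. Hist1h1c, the gene of H1.2, stood at 46.5 and 74.6 CPM in the wild-type and at 53.8 and 48.9 CPM in the SCD library, so its order differed between the libraries. Hist2h3c1 (H3) was rare everywhere, at 0.857 and 3.34 CPM in the wild-type.

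**Figure D3:**
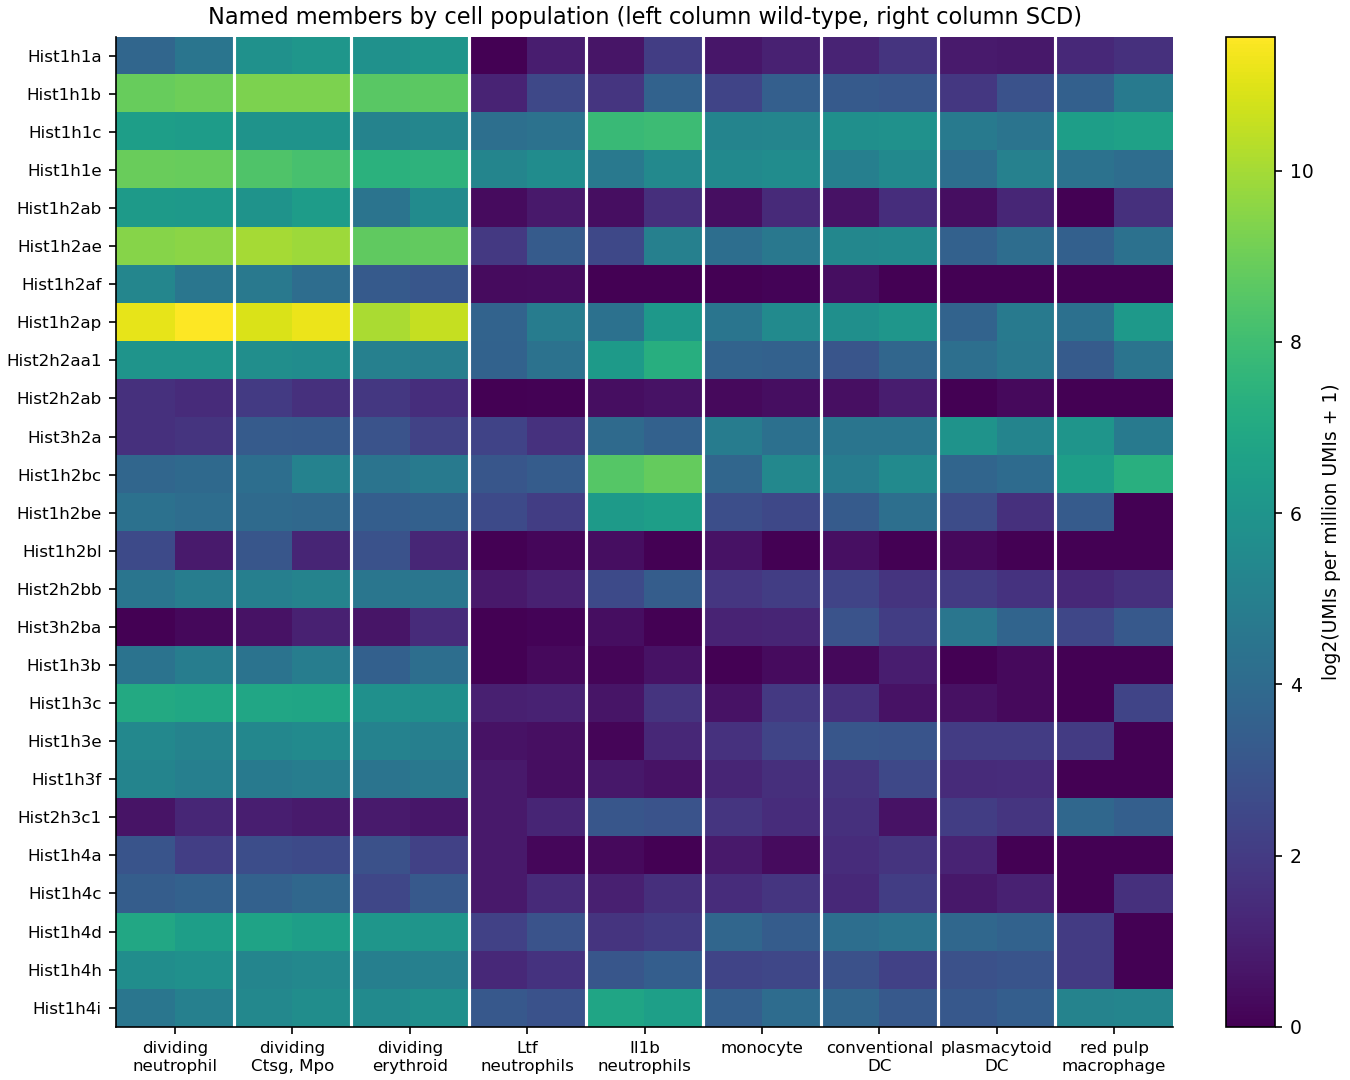
Level of the named members as log2(CPM + 1) in 9 cell populations, left column of each pair wild-type, right column SCD. Hist1h2ap, Hist1h2ae and Hist1h1b are bright in the 3 dividing populations, while Hist1h2bc, Hist1h1c and Hist1h4i are brightest in Il1b-expressing neutrophils.

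Within dividing clusters a cell was called S-leading when it held more UMIs of the S phase genes than of the G2/M genes after thinning, and G2/M-leading when it held fewer. S-leading cells made up 37.0% (32.6 to 41.5) of the thinned wild-type dividing cells and 31.7% (29.7 to 33.7) of those of the SCD library, and 18.6% and 19.6% lay within 1 UMI of the boundary. Histone UMIs stood at 3239 CPM in S-leading and 3685 CPM in G2/M-leading wild-type cells, a ratio of 0.879 (0.865 to 0.893). In the SCD library they stood at 3748 and 4854 CPM, a ratio of 0.772 (0.767 to 0.778). H3 had the lowest ratio, 0.730 and 0.677, and H1 the highest, 1.01 and 0.856. No member was past 2-fold in either direction among 30 wild-type and 31 SCD members, against 0.196% and 0.153% of genes upward and 3.65% and 1.83% downward. The classes were not spread evenly over the phases: erythroid cells made up 89 of 175 S-leading and 72 of 258 G2/M-leading cells in the wild-type, and 262 of 700 and 264 of 1373 in the SCD library.

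The order of S-leading and G2/M-leading cells was not the same in all dividing classes. In dividing neutrophils of the SCD library the level was 5443 CPM where under 25% of the cell cycle UMIs were of the S list, 8856 CPM at 25 to 50%, 7114 CPM at 50 to 75% and 2713 CPM above. The Ctsg-Mpo-Prtn3 cluster went through the same order, at 5239, 7222, 5669 and 3145 CPM. Levels were thus highest in cells with S phase and G2/M transcripts together in these 2 populations of the SCD library. Erythroid cells of the SCD library gave 2665, 3396, 3199 and 3764 CPM, with the highest value in the cells led by S phase genes. Wild-type bins held from 5 to 86 cells. Over the same bins wild-type neutrophils gave 4904, 6574, 5784 and 1929 CPM (37, 17, 14 and 5 cells) and the Ctsg-Mpo-Prtn3 cluster 4368, 6052, 7416 and 1086 CPM (29, 18, 18 and 10 cells), so that both were lowest in the bin led most by S phase genes. Wild-type erythroid cells went from 2638 through 2718 and 2897 to 3264 CPM (15, 54, 86 and 20 cells). This order turned to 3200, 3153, 3064 and 2741 CPM without the cells whose barcode was found in both libraries, while the SCD values were then 2665, 3390, 3229 and 3764 CPM. Without the cells whose barcode was found in both libraries, erythroid S-leading cells of the wild-type stood at 2828 CPM and G2/M-leading cells at 3099 CPM, the reverse of their order with them. In the SCD library the order stayed, at 3398 and 3264 CPM.

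Among non-dividing clusters with at least 50 cells, the neutrophils led by Il1b had the highest histone level in the wild-type library and the next highest in the SCD library, after an unnamed cluster led by Igha, Jchain and Igkc, genes of antibodies, of whose cells 70.7% in the wild-type and 13.2% in the SCD library were called doublets. Il1b encodes interleukin 1 beta, and this cluster held 3699 wild-type and 954 SCD cells. Its histone level was 1051 CPM (1029 to 1072) in the wild-type against 1349 CPM (1300 to 1400) in the SCD library. Neutrophils of the 2 clusters with Ltf, the lactoferrin gene of specific granules, and without Retnlg among their 10 leading genes (386 and 3087 cells, called Ltf neutrophils) stood at 130 and 183 CPM, and those led by Retnlg (183 and 2270 cells) between them at 401 and 578 CPM. A cluster with both Ltf and Retnlg among its leading genes (of whose cells 38.1% and 77.8% were called doublets) was left out of the Ltf neutrophils and stood at 334 and 373 CPM. The ratio of the Il1b over the Ltf neutrophils was 8.05 (7.37 to 8.81) in wild-type cells and 7.38 (7.05 to 7.72) in SCD cells, with 1.0% of cells cycling in the Il1b cluster and 0.134% and 3.43% in the 2 Ltf clusters. Depth differed as well, at a median of 2324 and 2085 UMIs in the Il1b and 10070 and 9280 UMIs in the Ltf neutrophils.

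The leading members of Il1b neutrophils were not those of dividing cells. H2B was 29.9 and 31.2 times as high as in Ltf neutrophils (13.8 and 14.3 times without Hist1h2bc), H4 8.13 and 6.13 times, H2A 4.79 and 5.07 times, H1 4.48 and 4.01 times and H3 3.0 and 3.42 times. Hist1h2bc led with 360 CPM (348 to 373) in the wild-type against 450 CPM (421 to 479) in the SCD library, against 7.48 and 9.24 CPM in Ltf, 79.8 and 121 CPM in Retnlg and 13.3 and 14.4 CPM in dividing neutrophils. Hist1h1c followed with 230 and 241 CPM, against 18 and 19.8 CPM in Ltf neutrophils. Next came Hist1h4i (H4) with 109 and 90.3 CPM, Hist2h2aa1 with 79.0 and 153 CPM and Hist1h2be (H2B) with 78.4 and 88.9 CPM. These 5 held 81.5% and 75.8% of the histone UMIs of the cluster, while Hist1h2ap held 18.9 and 69.7 CPM there.

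Of 11 members compared in the wild-type, 9 were past 2-fold upward in Il1b over Ltf neutrophils, against 33.8% of genes, and 13 of 14 in the SCD library, against 34.6%. None was past it downward, against 11.0% and 9.15% of genes. Between dividing and non-dividing neutrophils, 21 of 30 wild-type members were past the fold upward, against 28.2% of genes, and 24 of 29 SCD members, against 28.3%. Downward, 4 members (Hist1h2bc, Hist1h2be, Hist1h4i and Hist3h2a) were past it in the wild-type, against 24.2%, and Hist1h2bc alone in the SCD library, against 14.0%. The non-dividing neutrophils were mostly the Il1b cluster in the wild-type and mostly the Retnlg and Ltf clusters in the SCD library, so the 2 libraries do not set the same cells against the dividing ones.

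**Figure D4:**
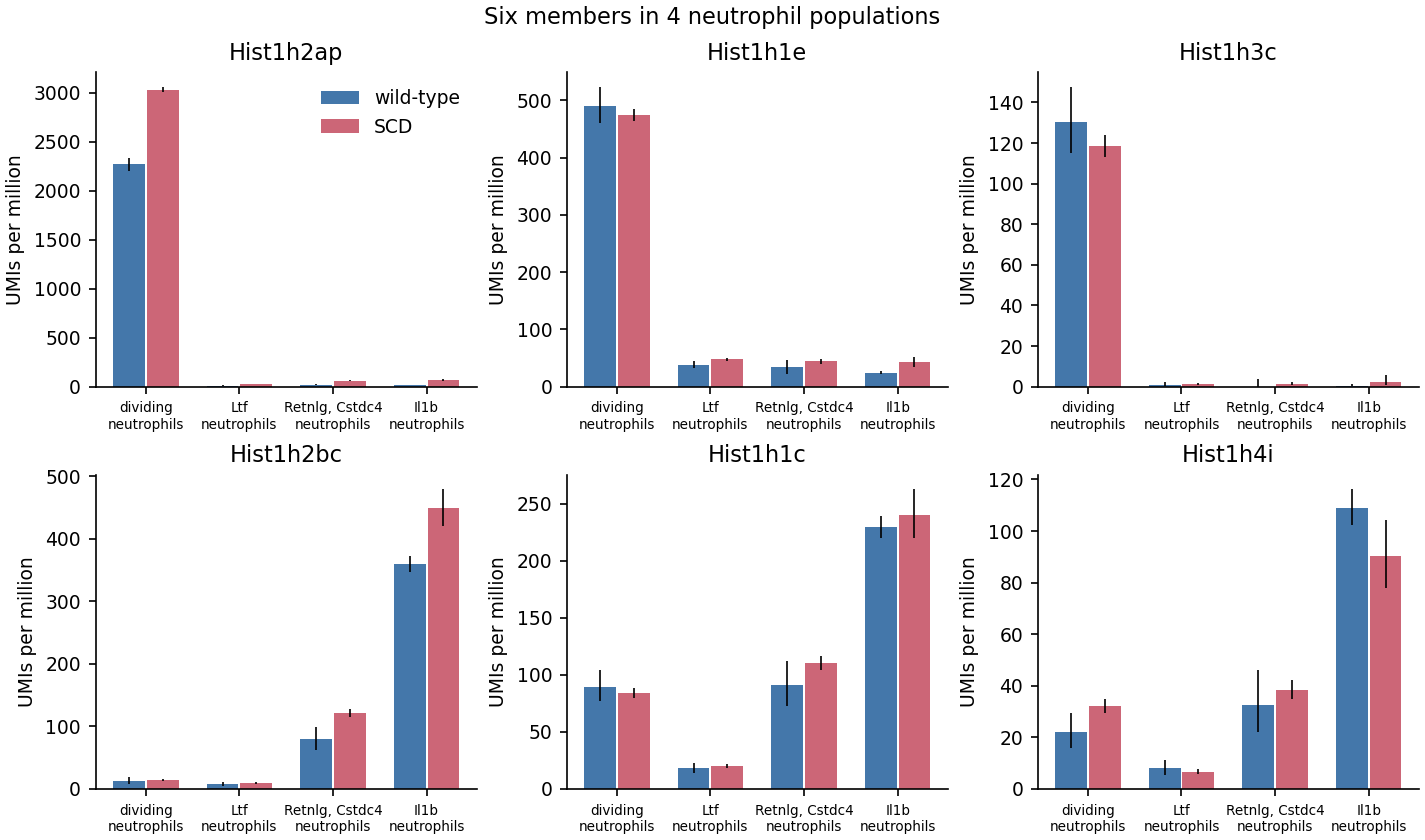
Level in CPM of 6 members in dividing, Ltf-expressing, Retnlg-led and Il1b-led neutrophils of the wild-type and SCD library, with bars for exact 95% Poisson intervals. Hist1h2ap, Hist1h1e and Hist1h3c are highest in dividing neutrophils, and Hist1h2bc, Hist1h1c and Hist1h4i in Il1b-led neutrophils.

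The H2A gene Hist3h2a was highest in other non-dividing classes. It was at 60.5 CPM (55.6 to 65.8) and 36.2 CPM (30.8 to 42.2) in plasmacytoid DC and at 63.5 and 25 CPM in red pulp macrophages, the splenic macrophages that take up aged red blood cells, against 6.46 and 5.01 CPM in dividing clusters. It was also counted in monocytes, at 28.2 and 18.2 CPM, and in Il1b neutrophils, at 15.1 and 11.0 CPM. Its neighbour Hist3h2ba (H2B) was at 22.0 and 12.3 CPM in plasmacytoid DC and at 0.908 and 1.25 CPM in dividing clusters. Both genes of chromosome 11 were thus lower in dividing cells than in plasmacytoid DC in both libraries. Hist1h2bc was also counted in red pulp macrophages, at 87.7 and 156 CPM, where these cells had few UMIs, at a median of 1340.5 and 1562.5.

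Shares of cells gave a similar order when UMIs were drawn at random down to 1000 in each cell, leaving out shallower cells. A UMI of any member was found in 75.9% (71.8 to 79.7) of dividing wild-type cells and 73.2% (71.3 to 75) of dividing SCD cells, in 56.2% and 68.4% of Il1b neutrophils and in 13.5% and 16.8% of Ltf neutrophils. Before thinning these shares were 97.0% and 98.7%, 78.7% and 86.7%, and 64.5% and 76.6%. Hist1h2ap was found in 61.1% and 59.8% of thinned dividing cells. As a background for RNA free in the suspension, it was found in 1.03% and 2.82% of plasmacytoid DC, in 1.30% and 2.92% of Ltf neutrophils and in 1.92% and 6.02% of Il1b neutrophils. Hist1h2bc was found in 25.6% (24.2 to 27.0) and 32.4% (29.4 to 35.5) of Il1b neutrophils. It was found in 1.04% and 0.810% of Ltf neutrophils and in 1.68% and 0.402% of plasmacytoid DC, both deeper classes. In the shallower red pulp macrophages (medians of 1340.5 and 1562.5 UMIs) it was found in 7.11% (4.03 to 11.5) and 13.04% (7.92 to 19.8). The share in Il1b neutrophils lay above those of these classes in both libraries, and the part of free RNA in it was not tested. Thinning left out 44 and 7 Il1b neutrophils, 1 and 2 Ltf neutrophils and 79 and 20 red pulp macrophages.

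The kinds of annotated transcript were also captured in different shares. Members whose model ends near the stem-loop held 48.2% and 55.0% of the histone UMIs in dividing clusters and 17.0% and 29.1% in non-dividing clusters. Hist1h2ap, which is among them, alone held 39.7% and 47.0% in dividing and 6.48% and 14.9% in non-dividing clusters. Most of this difference thus lay in 1 gene. Members whose model goes on past the stem-loop held 33.6% and 29.4%, and 58.6% and 50.4%. The 4 members whose searched model is spliced and lacks the stem-loop held 0.891% and 0.929% in dividing clusters and 36.9% and 35.6% in Il1b neutrophils. Nearly all of their UMIs came from Hist1h2bc and Hist1h2br. Whether the captured molecules carried a poly(A) tail cannot be read from these counts. Hist1h1e and Hist1h2be overlap on the same strand, and their UMIs may not be fully separated.

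Between the 2 mice, the sum over all kept cells was 1258 CPM in the wild-type against 2832 CPM in the SCD library (ratio 2.25, 2.24 to 2.27). More dividing cells and more captured histone mRNA in each cannot be told apart in such a sum, so the libraries were compared within clusters. In dividing clusters together the ratio was 1.28 (1.27 to 1.29), or 0.35 on the log2 scale, which was 0.045 when cells with over 5000 detected genes were left out. Erythroid cells made up 72.5% of the UMIs of dividing clusters in the wild-type and 51.8% in the SCD library. Within dividing neutrophils the levels were 5046 and 5809 CPM, a ratio of 1.15 (1.13 to 1.18), in the Ctsg-Mpo-Prtn3 cluster 4956 and 5337 CPM, a ratio of 1.08 (1.06 to 1.10), and in dividing erythroid cells 2805 and 3283 CPM, a ratio of 1.17 (1.16 to 1.18). Without the cells with shared barcodes the erythroid levels were 2975 and 3293 CPM, a ratio of 1.11. The summed level was thus higher in the SCD library in each of these populations, by a difference that could not be set against the spread between animals of 1 genotype. The share of thinned cells with a histone UMI was 82.1% and 72.7% in dividing neutrophils. It was 58.0% and 67.7% in the Ctsg-Mpo-Prtn3 cluster and 78.4% and 81.9% in erythroid cells.

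In non-dividing clusters pooled, the order was the opposite, at 434 CPM in the wild-type against 364 CPM in the SCD library (ratio 0.839, 0.824 to 0.854), but the log2 ratio turned from −0.25 to 0.52 when each cluster counted once. The median over all genes in these pooled clusters was −0.60 with no CPM added, lower than that of the members' sum. Cluster by cluster, 13 of the 15 were higher in the SCD library, 9 with an interval above 1 and 1 of the other 2 with an interval below 1. Of the 11 with at least 50 cells in both libraries 10 were higher, with ratios from 0.862 to 3.01 and a median of 1.28. The share of cycling cells was higher in the SCD library as well, in 12 of the 12 clusters that held any, as in monocytes led by Vcan with 0.189% and 2.67%. Here and below, cells under 1000 UMIs, in which cycling was not called, were left out with the cycling cells. Among red pulp macrophages these were 79 wild-type and 20 SCD cells. Without the cells called cycling, 13 of the 15 were higher in the SCD library, 10 with an interval above 1 and 0 with one below 1. The 11 clusters that kept 50 cells in both libraries then had ratios from 1.10 to 1.52, with a median of 1.29. The ratio of 3.01 was that of the cluster led by Igha, where 4.74% of wild-type and 15.8% of SCD cells were cycling, and it was 1.52 (1.38 to 1.67) without them. The make-up of the pool differed as well, with 3699 Il1b neutrophils among 8766 non-dividing cells in the wild-type and 954 among 8571 in the SCD library, and its part in the pooled value was not tested. In non-dividing neutrophils pooled the ratio was 0.467, with 732 and 342 CPM, while it was 1.28 (1.23 to 1.34) in the Il1b cluster and 1.44 (1.30 to 1.60) in the Retnlg cluster. The exception below 1 was the DC cluster led by Ccr7 and Fscn1, genes of migrating DC, at 640 and 552 CPM, and its ratio went from 0.862 to 1.17 (1.03 to 1.32) without the cells called cycling.

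In the 5 mixed clusters the ratio of SCD over wild-type ran from 1.09 to 5.34. Erythroid cells led by Hbb-bs stood at 1745 CPM in the wild-type (56 cells) against 7806 CPM in the SCD library (88 cells), a ratio of 4.47 (4.16 to 4.81), with 7.14% and 54.5% of their cells cycling. An unnamed cluster led by Ighg1, an antibody gene, stood at 1700 and 5849 CPM (178 and 245 cells), with 17.9% and 66.8% cycling. Another led by Ighg3 stood at 512 and 2732 CPM (18 and 173 cells), with 5.56% and 40.5% cycling and 61.1% and 48.0% called doublets. Conventional DC led by Xcr1 stood at 1003 and 1898 CPM, with 27.0% and 22.5% cycling. The B cell cluster with Vpreb1 and Vpreb3, genes of the surrogate light chain of B cell precursors, stood at 7317 CPM (21 cells) and 7974 CPM (304 cells), with 38.1% and 38.9% cycling. Without the cells called cycling the ratios were 1.16 (0.865 to 1.56) in the Hbb-bs cluster, 1.23 (1.10 to 1.37) in the Ighg1 cluster, 2.05 (1.62 to 2.62) in the Ighg3 cluster, 1.83 (1.64 to 2.04) in the Xcr1 cluster and 1.69 (1.10 to 2.75) in the B cell cluster, where 13 wild-type cells were left. The ratio was thus lower without these cells in the first 3 clusters, close to that of all cells in the Xcr1 cluster and higher in the B cell cluster.

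By type, the H2A sum had the highest ratio between the mice in dividing clusters, and Hist1h2ap carried it. The ratio of SCD over wild-type was 1.38 (1.37 to 1.40) for H2A, 1.14 for H1, 1.08 for H3, 1.07 for H2B and 1.02 (0.988 to 1.06) for H4. Without Hist1h2ap the other 17 H2A genes stood at 718 against 822 CPM, a ratio of 1.14 (1.12 to 1.17), like that of H1. Within the 3 dividing classes with at least 50 cells in both libraries, H2A gave 1.23, 1.26 and 1.12 in neutrophils, erythroid cells and the Ctsg-Mpo-Prtn3 cluster. H1 gave 1.03, 1.05 and 0.960, H3 gave 0.947, 1.03 and 1.07, and H4 gave 0.889, 1.04 and 0.986. H2B gave 1.08, 1.05 and 1.19. The H2A interval lay above 1 in all 3 classes with Hist1h2ap. Without it the H2A ratios were 0.994 (0.948 to 1.04) in neutrophils, 1.05 (1.02 to 1.07) in erythroid cells and 0.931 (0.894 to 0.969) in the Ctsg-Mpo-Prtn3 cluster. Without the cells with shared barcodes the erythroid ratios were 1.20 (1.18 to 1.22) for H2A, 0.959 (0.936 to 0.984) for H1, 1.02 for H2B, 0.999 for H3 and 1.03 for H4, so that H1 went from above to below 1.

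Hist1h2ap, the most captured H2A gene, had a higher summed CPM in the SCD library in each of these classes. It stood at 2267 and 3029 CPM in dividing neutrophils, at 1093 and 1495 CPM in dividing erythroid cells and at 1932 and 2401 CPM in the Ctsg-Mpo-Prtn3 cluster, ratios of 1.34, 1.37 and 1.24. The share of thinned cells with its UMIs had the opposite order in dividing neutrophils, at 75.6% (64.6 to 84.7) and 64.2% (60.7 to 67.6). That share was 55.3% and 63.8% in erythroid cells and 50.6% and 53.1% in the Ctsg-Mpo-Prtn3 cluster. Hist1h2ae, the next most captured H2A gene, stood at 716 and 739 CPM, at 432 and 438 CPM and at 1038 and 938 CPM, and so was nearly level or lower. Without the cells with shared barcodes Hist1h2ap stood at 1170 and 1501 CPM in erythroid cells, a ratio of 1.28, and Hist1h2ae at 449 and 439 CPM, a ratio of 0.979 (0.947 to 1.01). The level in non-dividing plasmacytoid DC, taken as background, was higher in the SCD library too, at 11.7 and 25.9 CPM, where 0.387% and 2.41% of these cells were cycling. Without the cells called cycling it was 9.34 and 24.1 CPM, and its part in the difference was not tested.

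Among the 57 members with at least 50 UMIs in dividing clusters, 32 were higher and 25 lower in the SCD library, on the scale log2(CPM + 5). The 5 highest were Hist1h2ab (0.84), Hist1h2ap (0.59), Hist1h3b (0.59), Hist1h4c (0.41) and Hist1h2bc (0.37). The lowest were Hist1h2bl (−0.99), Hist1h4a (−0.44), Hist2h2ab (−0.22), Hist3h2a (−0.19) and Hist1h2af (−0.18). The median over all genes in dividing clusters was −0.11 on the log2 scale with no CPM added, so the members sit against a slight shift downward. Pooled values of single members also move with the share of each class, and the next values are within classes.

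Hist1h2ab and Hist1h3b are neighbours on chromosome 13 (23751126 to 23751598 and 23752267 to 23752886). Hist1h2ab (H2A) stood at 20.7 CPM (18.4 to 23.1) and 46.5 CPM (44.5 to 48.5) in dividing erythroid cells, but at 77.5 and 72.7 CPM in dividing neutrophils and at 61.2 and 83.1 CPM in the Ctsg-Mpo-Prtn3 cluster. Of these 3 classes its ratio between the mice was largest in erythroid cells, and no test of the difference between classes was possible. Hist1h3b (H3) stood at 10.8 and 17.2 CPM, 20.4 and 29.0 CPM, and 20.1 and 29.0 CPM in erythroid cells, neutrophils and the Ctsg-Mpo-Prtn3 cluster, higher in the SCD library in each. Hist1h2bl (H2B) was the reverse, at 6.47 and 1.36 CPM, 5.10 and 0.776 CPM, and 7.65 and 1.30 CPM, on 147 wild-type and 111 SCD UMIs in dividing clusters. It shares 82.8% of its windows with other genes. Leaving out the cells with shared barcodes kept the erythroid order of all 3, at 19.2 and 46.6 CPM for Hist1h2ab, 11.6 and 17.1 CPM for Hist1h3b and 5.78 and 1.35 CPM for Hist1h2bl.

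Few members were past the fold between the mice. In dividing neutrophils 0 of 30 were higher or lower by 2-fold, against 0.431% and 1.02% of genes. In dividing erythroid cells Hist1h2ab was higher, 1 of 25 members against 0.785% of genes, and 0 were lower, against 0.771%. Without the cells with shared barcodes it was again Hist1h2ab alone that was higher, 1 of 28 against 0.819%, and 0 were lower, against 1.15%. In the Ctsg-Mpo-Prtn3 cluster Hist1h3d (H3) was higher, at 6.22 and 13 CPM on 13 and 340 UMIs, 1 of 32 members against 0.908% of genes, and 0 were lower, against 0.983%. In Il1b neutrophils 3 of 14 were higher, against 3.1% of genes, and 0 were lower, against 1.49%. These 3 were Hist1h2ap with 18.9 and 69.7 CPM, Hist1h2ae with 4.70 and 32.0 CPM and Hist1h1b with 2.46 and 11.5 CPM, the members that lead dividing cells. With no CPM added, the median log2 ratio was −0.01 over the members and −0.11 over all genes in dividing neutrophils, 0.11 and −0.02 in erythroid cells, 0.11 and −0.09 in the Ctsg-Mpo-Prtn3 cluster and 0.37 and −0.00 in Il1b neutrophils. Hist1h2ap also stood higher in the SCD library in Ltf neutrophils, at 11.7 and 27.7 CPM, and in monocytes, at 21.3 and 45.5 CPM, and the part of such a level in the Il1b values was not tested.

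**Figure D5:**
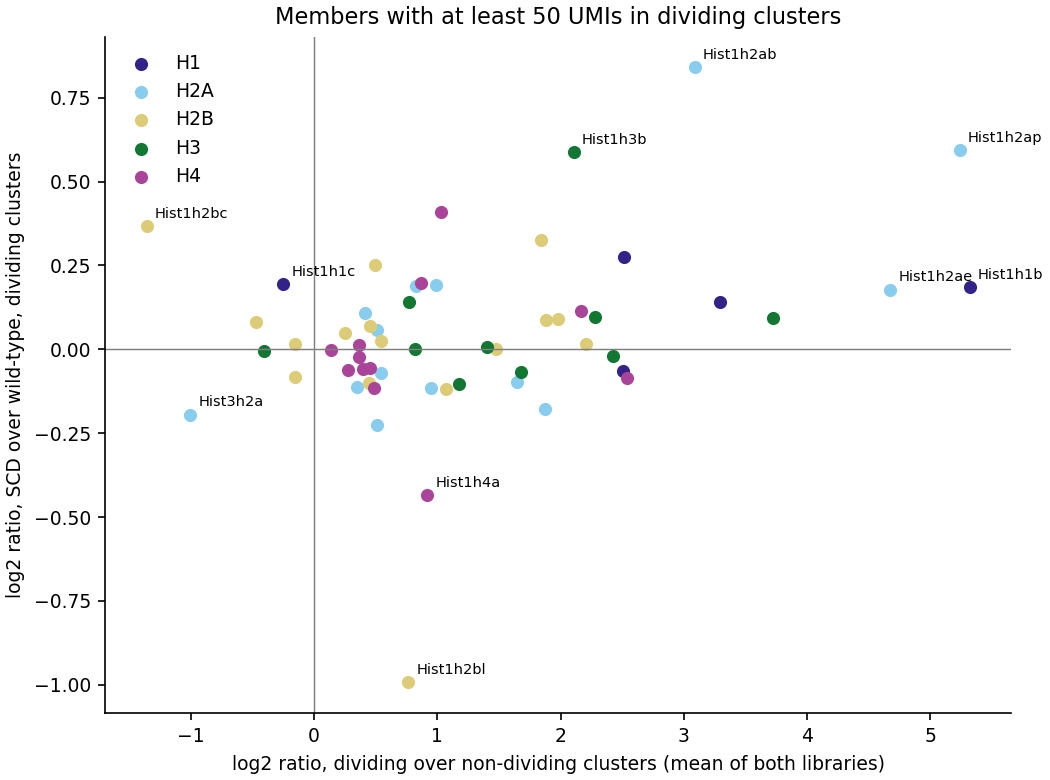
Log2 ratio of each member with at least 50 UMIs in dividing clusters, dividing over non-dividing clusters (x axis, mean of both libraries) against SCD over wild-type in dividing clusters (y axis), both on the scale log2(CPM + 5), coloured by type. Most members lie close to 0 on the y axis, with Hist1h2ab at 0.84 and Hist1h2bl at −0.99 at the ends.

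The DNA upstream of the members was searched for 3 motifs of histone promoters, in the 250 bases before and 50 after the start site of RefSeq genes (GRCm38.p6), which covered 61 of the 66 members. TATAAN on the gene's strand was present in 41, against 17.5% of 32851 promoters, and CCAAT on either strand in 53, against 37.4%. The octamer ATGCAAAT, the site of OCT1 and OCT2, was present on either strand in 13, against 1.74%, of which 7 were H2A and 6 H2B genes. Hist1h2be has 2 start sites in the table, only 1 of them with the octamer, and was counted by the other. CCAAT was found in all H1, H2A, H2B and H3 promoters of the table and in 3 of 11 H4 promoters. A match says only that the letters are there. The stretches below are shown for the H2A gene that leads in dividing cells, and for Hist1h2ac, whose upstream region adjoins the start of Hist1h2bc (position 23684199 of chromosome 13, on the opposite strand), the member that leads in Il1b neutrophils. Capitals mark these 3 motifs or their reverse complements, and both stretches are on the minus strand, at chr13:21833528-21833677 (202 to 53 bases before the start site) and chr13:23683981-23684133 (174 to 22 bases before it).
Hist1h2ap: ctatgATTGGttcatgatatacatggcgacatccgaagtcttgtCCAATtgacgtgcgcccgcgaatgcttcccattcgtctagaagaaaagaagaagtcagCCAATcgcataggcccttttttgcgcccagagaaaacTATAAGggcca
Hist1h2ac: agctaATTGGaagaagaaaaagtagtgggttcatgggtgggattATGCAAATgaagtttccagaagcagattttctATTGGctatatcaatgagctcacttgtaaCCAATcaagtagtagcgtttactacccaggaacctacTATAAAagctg

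The upstream stretch of Hist1h2ap holds CCAAT on both strands and a TATA match and no octamer, and that of Hist1h2ac holds all 3 motifs. Hist1h2ac itself stood at 20.1 and 36.8 CPM in Il1b neutrophils, against 6.63 and 8.24 CPM in dividing neutrophils, the same order as Hist1h2bc across the gap between their start sites.

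Other genes of the pathway were taken from lists of the machinery that makes and handles these mRNAs and proteins. Of 17 genes of transcription and 3′ end processing, 16 were compared, and 10 were past 2-fold upward in dividing over non-dividing wild-type clusters and 13 in SCD clusters, with a median of 1.08 and 1.52 on the scale log2(CPM + 5). Over all genes compared, as given before, 25.8% and 38.0% were past it upward and 28.6% and 17.9% downward. Slbp, the stem-loop binding protein gene, stood at 243 against 65.2 CPM in the wild-type and at 228 against 49.5 CPM in the SCD library. The highest ratios were those of Ccne1 (cyclin E1, which drives entry into S phase; mean log2 3.76), Slbp (1.96) and Srrt (1.62). The lowest were those of Cpsf3, the gene of the endonuclease that cuts histone pre-mRNA (0.59), Zfp473 (0.14) and Lsm10, a gene of the U7 particle (−0.49). Zfp473 was the gene too rarely counted to be compared, at 0.857 against 0.359 CPM in the wild-type (17 and 19 UMIs) and 0.861 against 0.256 CPM in the SCD library, and its log2 ratio is low because 5 CPM were added to both sides.

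Against the same shares of all genes, 15 of 18 histone chaperones were past the fold upward in each library, with a median of 1.79 and 2.36 on that scale, led by Nasp (3.47), Asf1b (3.36) and Chaf1a (3.13), and the lowest were Rbbp4 (1.16), Daxx (0.40) and Atrx (0.18). Daxx and Atrx place the replacement histone H3.3. Hjurp is on the chaperone list and also among the G2/M genes that defined the dividing clusters, so its ratio is partly set by that choice. It stood at 91.0 against 22.8 CPM in the wild-type and at 93.7 against 58.5 CPM in the SCD library. Of the replacement histones 5 of 10 were past the fold upward in the wild-type and 5 of 9 in the SCD library, with a median of 0.88 and 1.19. Cenpa (3.58), H2afx (3.54) and H2afz (1.65) had the highest ratios and H2afj (0.03), H2afy2 (−0.01, at under 1 CPM in dividing and non-dividing clusters of both libraries and not among the genes compared) and H3f3a (−0.44), a gene of H3.3, the lowest. None of these 3 lists had a gene past the fold downward in either library, against the 28.6% and 17.9% of all genes. H3f3a stood at 1676 against 2329 CPM in the wild-type and at 1651 against 2186 CPM in the SCD library, the opposite order to the sum of the H3 members.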

How the data were processed

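The 2 files analysed held raw UMI counts per gene and cell, 1 library per mouse. The deposited counts were made by the authors with Cell Ranger 4.0.0, which assigns barcodes, counts uniquely placed reads once per UMI and drops empty droplets. The submitters' processing notes name the build GRCm38.p6, and the annotation is not given in the sources used here. Gene positions and transcripts were taken from GENCODE M21 and start sites from RefSeq.

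Cells with at least 500 detected genes, under 15% mitochondrial and under 30% ribosomal UMIs were kept, without the study's upper limit of 5000 genes, since it removes cells with the most histone UMIs (295 wild-type and 1220 SCD cells). Scran 1.30.0 (R 4.3.3) size factors, Scanpy 1.11.5 and Leiden clustering at resolution 1 (leidenalg 0.10.2) gave 26 clusters, with the histone genes left out of the variable genes. Classes were named from marker lists, and 5 clusters stayed unnamed. Those led by Ighg1 and by Igha did so by a rule on leading immunoglobulin genes added after seeing the data. The Ighg1 cluster also scored nearly the same for its best and its next class (0.7663 and 0.7662). Doublets called by Scrublet (3.93% of wild-type and 2.56% of SCD cells) were kept, and removed as an alternative.

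UMIs were summed per library and population and divided by the population's total (CPM). Log2 ratios were taken of CPM + 5, except fold calls and the medians named as having no CPM added. With 1 library per group no p-value was computed. Ratios carry exact 95% intervals from the binomial split of counts, levels exact Poisson intervals and shares Clopper-Pearson intervals. Depth limits the precision of rare members: with 3 counts as the floor, the smallest level that could be told from 0 over all kept cells was 0.0377 CPM for the wild-type and 0.0174 CPM for the SCD library. Past the fold means at least 2-fold with at least 20 UMIs and 10 CPM on 1 side, and a side under 3 counts was set to 3. Named members were the 3 with most UMIs of each type and, among those with at least 50 UMIs in dividing clusters, the 5 highest and 5 lowest of each of 2 ratios. Genes of other lists were named as the 3 highest and 3 lowest of each list, beside Slbp. The scripts were tested on simulated counts. The members and lists were chosen with earlier results of these data known. Alternatives were the upper and a lower limit on genes, no mitochondrial or ribosomal filter, doublets, clustering resolution, genes and normalization, a call of division per cell, median-of-ratios scaling, the pseudocount and thinning, and, chosen after seeing the data, equal weight for each cluster, type sums without their most captured member, clusters without cycling cells and leaving out barcodes found in both libraries.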

Additional observations from a re-analysis of the deposited data

Results flagged for a closer look

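The ratio of histone UMIs in S-leading over G2/M-leading cells had opposite signs in different dividing classes. In dividing erythroid cells its log2 value was above 0 in both libraries, 0.19 in the wild-type and 0.0425 in the SCD library. Without cells whose barcode was found in both libraries the wild-type sign turned, with 2828 CPM in S-leading and 3099 CPM in G2/M-leading erythroid cells, while the SCD order stayed, at 3398 and 3264 CPM. In dividing neutrophils it was −0.19 and −0.52, and in the dividing cluster led by Ctsg, Mpo and Prtn3 it was −0.16 and −0.46. The difference between the classes was not tested, since each group held 1 library. Cells that were within 1 UMI of the boundary between the phases made up 30.5% and 31.2% of erythroid cells, 11.5% and 16.5% of neutrophils and 13.6% and 14.4% of the Ctsg-Mpo-Prtn3 cluster. The erythroid cells were also deeper, at a median of 80628.5 and 79213 UMIs against 22761.5 and 20883 in neutrophils, and their part in the difference was not tested.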

How the results depend on the processing

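All values here are log2 ratios of summed histone CPM unless named as counts. No ratio past 2-fold turned its direction: of 221 such gene and type ratios 221 kept it. These 221 hold no ratio under 2-fold, and so leave out the type ratios between the mice in dividing clusters. The named member ratios there were under 2-fold too on the reported log2 scale. Of 741 values beyond the summary values, 470 moved and 271 stayed within their counting interval or near the reported count. Of 98 summed ratios 95 kept their sign. The 3 that did not were SCD over wild-type in the pooled non-dividing clusters, −0.25 as reported, which was 0.12 when each cell was called dividing on its own, 0.35 with median-of-ratios scaling and 0.52 with equal weight for each cluster. Equal cluster weight and leaving out barcodes found in both libraries were chosen after seeing the data. The reported values were 1.17 for SCD over wild-type in all kept cells, 0.35 in dividing clusters, 2.96 and 3.56 for dividing over non-dividing clusters in the wild-type and SCD library, and −0.19 and −0.37 for S-leading over G2/M-leading cells. The cause of the differences below was not tested.

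For SCD over wild-type in all kept cells, the value was 1.35 with the upper limit of 5000 genes, 1.16 with at least 1000 genes, 1.01 without the mitochondrial and ribosomal filter, 1.13 without called doublets, 1.36 with median-of-ratios scaling, 1.14 with a pseudocount of 50 CPM, 0.96 after thinning, 0.72 with equal cluster weight and 1.25 without barcodes found in both libraries. In dividing clusters it was 0.045, 0.37, 0.58, 0.46, 0.16 and 0.23 with the upper limit, at least 1000 genes, no filter, median-of-ratios scaling, equal weight and without those barcodes, 0.37 at resolution 2 and with total count normalization, and 0.49 with division called per cell. In non-dividing clusters it was −0.10 with the upper limit, −0.18 with at least 1000 genes and with histones used in clustering, −0.20 without the filter, −0.17 without doublets, −0.11 with total count normalization, −0.22 with the larger pseudocount and −0.38 after thinning.

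For dividing over non-dividing clusters of the wild-type, the value was 3.50 with the upper limit, 3.09 with at least 1000 genes, 2.67 without the filter, 2.95 at resolution 2, 3.04 with histones used in clustering, 2.92 with total count normalization, 2.84 with the larger pseudocount, 2.57 after thinning, 3.49 with equal weight and 3.08 without barcodes found in both libraries. In the SCD library it was 3.64 with either limit on genes, 3.45 without the filter, 3.52 without doublets, 3.41 with total count normalization and with the larger pseudocount, 3.34 with division called per cell, 3.08 with median-of-ratios scaling, 3.32 after thinning and 3.13 with equal weight.

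For S-leading over G2/M-leading cells of the wild-type, the value was −0.42 with the upper limit and with division called per cell, −0.26 without the filter, −0.23 with histones used in clustering and with median-of-ratios scaling, −0.35 after thinning, −0.10 with equal weight and −0.47 without barcodes found in both libraries. In the SCD library it was −0.66 with the upper limit, −0.42 without the filter and with total count normalization, −0.39 with histones used in clustering, −0.41 with division called per cell, −0.46 with median-of-ratios scaling, −0.47 after thinning and −0.29 with equal weight.

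The count of members past 2-fold upward in dividing clusters of the wild-type was 22, and 9 after thinning, where fewer UMIs remain, and that downward was 2, and 5 after thinning. The count downward in the SCD library was 0, and it was 1 with the upper limit, without doublets, at resolution 2, with median-of-ratios scaling and after thinning, and 2 with total count normalization. Another 77 summary values stayed within their counting interval or near the reported count. Removing only the shallower copy of a barcode found in both libraries was also chosen after seeing the data and moved none of the summed ratios. No paired analysis was possible because there was only 1 sample in each group. Depth limits the rare members most, and intervals cover counting error only.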
